A study of Mus musculus with 32 samples.

Results

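The lysosome is acidified by the vacuolar ATPase, a rotary proton pump in which the V1 sector splits ATP in the cytosol and the membrane-bound V0 sector carries protons into the lumen. Cathepsins and tripeptidyl peptidase are proteases that work in that acid lumen, and LAMP1 and LAMP2 are the abundant glycoproteins of the lysosomal membrane. Macrophages of obese fat are rich in lysosomes that take up and break down lipid, and *Atp6v0d2* and *Ctsk* are best known from the osteoclast, a related bone-resorbing cell. The genes described here were found by name, as those whose symbol starts with *Atp6v* or *Atp6ap* or names a cathepsin, with *Lamp1*, *Lamp2* and *Tpp1*. Of the 24646 genes measured, 51 matched, and 9 cathepsins known from the placenta were set aside by name. All 9 lay under the median of the table in every tissue, as did some genes that were kept, such as *Atp6v1b1*. The 42 that remain are 9 V0 subunits, 13 V1 subunits, 3 accessory proteins of the pump, 10 cysteine cathepsins, 5 aspartic or serine proteases and the 2 LAMPs.

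The data come from 4 male *Gpr146* wild-type (WT) and 4 male *Gpr146* knockout (KO) mice, whose liver, epididymal white fat (eWAT), inguinal white fat (iWAT) and brown fat (BAT) were each hybridized to a Mouse Gene 2.1 ST array, 32 arrays in all. Both genotypes were 20 weeks old, ate high-fat food over 3 months and went without food overnight before the tissues were taken, so no group stands for lean or fed mice. The knockout is of the whole body and removes the G protein-coupled receptor GPR146, and WT and KO mice were bred from heterozygous parents. The strain is not given in the labels, which number the mice 1 to 4 per genotype in every tissue and do not say that a number is the same animal throughout. *Gpr146* was lower in all 4 KO arrays than in all 4 WT arrays of each tissue, with log2 fold changes of -1.77 in liver, -1.53 in eWAT, -1.55 in iWAT and -1.16 in BAT. Hepatocyte markers were high in liver and brown fat markers in BAT, as the labels have it. In eWAT, KO mouse 2 stood between the WT mice and the other 3 KO mice in most of the genes below, and results that rest on this array are given with and without it. In iWAT, markers of B and T cells varied between arrays of both genotypes, and in BAT so did markers of skeletal muscle.

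All values below are log2 values, and a difference is KO minus WT on that scale with its standard error, tested with limma and adjusted over all 24646 genes. In eWAT, 23 of the 42 genes fell and 2 rose in the knockout at an adjusted p below 0.05. Over all genes, 10.7% fell and 4.57% rose (2632 and 1126 genes, or 1910 and 1830 after quantile normalization of the arrays). These shares include many genes with little signal. With genes under the median of the table left out, 32 of the 42 remained, of which 25 fell and 1 rose. In that fit 2747 of all 12323 genes fell and 1082 rose. The median difference was -0.51 over the 42 genes and 0.03 over all genes tested, and 31 of the 42 were below 0. In 24 of the 42 all 4 KO arrays lay below all 4 WT arrays and in 2 they lay above, where 13.0% and 8.63% of all genes did so. The fall ran through every class. It took in 13 of the 25 pump subunits and accessory proteins and 9 of the 15 proteases, besides *Lamp2*. Both genes that rose, *Atp6v0e2* and *Atp6v1c2*, encode alternative forms of pump subunits whose more widely used forms, *Atp6v0e* and *Atp6v1c1*, fell. The 2 of 42 that rose were close to the share of all genes that did. Of the 8 fits that left out an array, *Atp6v0e2* kept its call in 2 and *Atp6v1c2* in 1. The mean over all 42 genes was 6.78 to 6.85 in the WT arrays and 6.00, 6.64, 6.08 and 6.04 in KO mice 1 to 4.

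**Figure D1:**
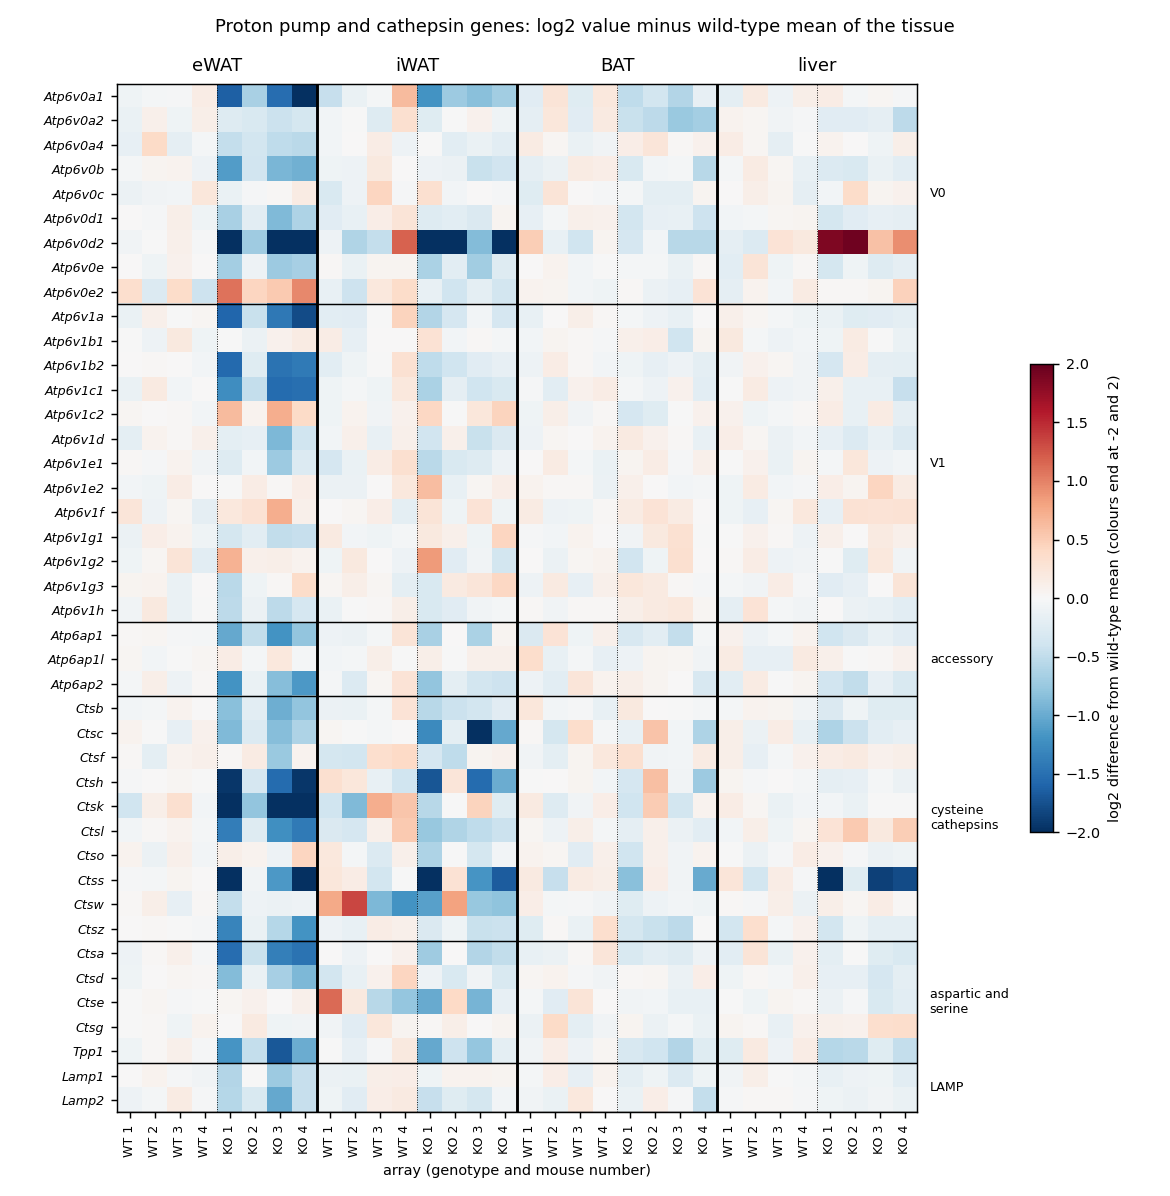
Difference of each array from the WT mean of its tissue (log2, colour scale) for the 42 genes in rows, ordered by class, with the 8 arrays of each tissue in columns. In eWAT most V0, accessory and protease rows are blue in KO mice 1, 3 and 4 and pale in KO mouse 2, while in liver *Atp6v0d2* is red in the KO mice and *Ctss* blue in 3 of the 4.

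Many lysosomal genes share a short promoter element, the CLEAR motif, which is bound by the factors TFEB, TFE3 and MITF and is built around the palindrome CACGTG. Promoters from 250 bases before to 50 after the start, taken from RefSeq (GRCm38.p6), were at hand for 31 of the 42 genes, 1 to 3 starts each. On either strand, CACGTG was present for 9 of the 31 (29.0%), against 8.09% of the 27025 genes in the same table. The longer form GTCACGTG, which contains it, was present for 5 of the 31 (16.1%), against 2.55% of all. Windows with the longer form are shown for 4 genes, together with that of *Ctsk*, the second most changed gene in eWAT, which holds no CACGTG. Letters in capitals mark CACGTG and each window is written 5′ to 3′ on the strand of its gene. They lie at chr4:117887280-117887579 (minus strand, *Atp6v0b*), chr8:105566015-105566314 (minus, *Atp6v0d1*), chr2:164833523-164833822 (plus, *Ctsa*), chr8:13158911-13159210 (plus, *Lamp1*) and chr3:95498960-95499259 (plus, *Ctsk*).
Atp6v0b: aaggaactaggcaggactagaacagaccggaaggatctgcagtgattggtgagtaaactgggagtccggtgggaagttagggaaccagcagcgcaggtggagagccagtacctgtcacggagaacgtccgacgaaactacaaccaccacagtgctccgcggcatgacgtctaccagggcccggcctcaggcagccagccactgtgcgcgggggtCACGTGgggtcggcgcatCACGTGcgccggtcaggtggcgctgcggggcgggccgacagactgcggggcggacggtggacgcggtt
Atp6v0d1: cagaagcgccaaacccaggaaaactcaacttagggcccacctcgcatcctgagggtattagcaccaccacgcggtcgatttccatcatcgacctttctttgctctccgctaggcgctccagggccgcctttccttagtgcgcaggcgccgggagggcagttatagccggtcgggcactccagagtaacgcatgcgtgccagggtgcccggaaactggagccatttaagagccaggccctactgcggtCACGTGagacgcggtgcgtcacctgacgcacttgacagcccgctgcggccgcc
Ctsa: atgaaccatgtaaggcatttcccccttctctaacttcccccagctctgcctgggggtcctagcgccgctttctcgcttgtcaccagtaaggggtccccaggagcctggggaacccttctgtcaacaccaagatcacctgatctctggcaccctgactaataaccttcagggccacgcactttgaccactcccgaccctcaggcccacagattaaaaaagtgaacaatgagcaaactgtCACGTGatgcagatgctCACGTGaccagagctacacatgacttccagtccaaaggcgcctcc
Lamp1: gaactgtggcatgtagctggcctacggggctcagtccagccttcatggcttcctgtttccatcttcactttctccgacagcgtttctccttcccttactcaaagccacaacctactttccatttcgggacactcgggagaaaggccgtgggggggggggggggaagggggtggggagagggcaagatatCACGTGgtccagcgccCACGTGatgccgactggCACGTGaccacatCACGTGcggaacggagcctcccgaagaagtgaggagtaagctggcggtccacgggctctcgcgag
Ctsk: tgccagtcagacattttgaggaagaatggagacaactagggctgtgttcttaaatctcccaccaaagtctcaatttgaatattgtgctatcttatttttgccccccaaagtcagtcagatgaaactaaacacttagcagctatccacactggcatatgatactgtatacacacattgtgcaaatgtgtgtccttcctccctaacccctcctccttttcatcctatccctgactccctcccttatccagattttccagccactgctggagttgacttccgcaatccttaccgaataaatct
The *Lamp1* window holds 4 copies and those of *Atp6v0b* and *Ctsa* 2 each, the first of them 36 bases before the start in *Atp6v0b*, 12 before it in *Ctsa* and 61 before it in *Lamp1*. In *Atp6v0d1* the single copy begins 3 bases before the start and runs across it. Of the 9 genes with CACGTG in the window, 7 fell in eWAT and the median difference was -0.64. Of the 22 without it, 9 fell and 2 rose, with a median of -0.37. Those of the 31 genes that lay under the median of the table in eWAT were all without CACGTG. They were *Atp6v0a4*, *Atp6v1b1*, *Atp6v1c2*, *Atp6v1e2*, *Atp6v1f*, *Atp6v1g3* and *Ctsg*. Such genes have little signal in which a fall could show, although *Atp6v0a4* did fall past the threshold. The medians with and without CACGTG are thus not like for like. The 2 genes with the largest falls in eWAT are outside the first group, since *Ctsk* has no CACGTG in its window and no window was at hand for *Atp6v0d2*. A match in these letters is a description of the sequence and shows no binding.

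Among the V0 subunits 7 of 9 fell in eWAT and 1 rose, with a median difference of -0.54. *Atp6v0d2*, the alternative form of the d subunit on the central stalk, changed most of all 42 genes. It measured 10.05, 10.11, 10.22 and 10.10 in WT mice 1 to 4 and 5.03, 9.42, 7.13 and 5.16 in KO mice 1 to 4. The WT values lay close together, and the KO values spread widely below them without overlap, KO mouse 2 nearest and KO mice 1 and 4 lowest. The mean was 10.12 ± 0.0678 (SD, n = 4) in WT and 6.69 ± 2.06 (SD, n = 4) in KO mice, a 10.8-fold lower level (difference -3.44, standard error 0.82, adjusted p = 0.0233). *Atp6v0d1*, the d subunit found in most cells, measured 8.19, 8.15, 8.29 and 8.09 in WT and 7.53, 7.98, 7.30 and 7.57 in KO mice. It fell by 0.59 (standard error 0.13, adjusted p = 0.0191), again with all KO values below all WT values.

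*Atp6v0a1*, one of the forms of the large a subunit that lines the path of the protons, measured 9.45, 9.49, 9.52 and 9.68 in WT and 7.91, 8.89, 8.01 and 7.42 in KO mice. Every KO array was below every WT array, and the level was 2.78-fold lower (difference -1.48, standard error 0.26, adjusted p = 0.0103). *Atp6v0a2*, a second a subunit, measured 6.49, 6.72, 6.53 and 6.73 in WT and 6.36, 6.32, 6.19 and 6.26 in KO mice. It fell by 0.34 (adjusted p = 0.0287), and here KO mouse 2 did not stand apart. *Tcirg1*, which encodes the a3 form and does not carry the family name, fell as well. Its values were 7.12, 7.09, 7.11 and 7.14 in WT and 4.80, 6.42, 5.83 and 5.004 in KO mice (difference -1.60, adjusted p = 0.0124). *Atp6v0a4*, a form of kidney and epididymis, was close to the lower end of the scale, with 2.57, 3.10, 2.55 and 2.69 in WT and 2.25, 2.36, 2.22 and 2.18 in KO mice (difference -0.47, adjusted p = 0.0316).

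The proton-carrying ring and its small partners did not move as one. *Atp6v0b*, a ring subunit, measured 8.66, 8.76, 8.78 and 8.60 in WT and 7.59, 8.31, 7.78 and 7.73 in KO mice and fell by 0.85 (standard error 0.14, adjusted p = 0.0100). The values for *Atp6v0c*, the main ring subunit, lay near the median of the table in both genotypes (difference 0.01, adjusted p = 0.978), so the array gave little signal for this gene. For the e subunit, *Atp6v0e* measured 8.69, 8.60, 8.77 and 8.69 in WT and 8.0, 8.59, 7.96 and 8.02 in KO mice. It fell by 0.54 (adjusted p = 0.0278) although KO mouse 2 sat only just below the WT mice. Its paralog *Atp6v0e2* measured 6.75, 6.13, 6.78 and 5.99 in WT and 7.50, 6.84, 6.93 and 7.38 in KO mice. Every KO value was above every WT value, and the gene rose by 0.75 (adjusted p = 0.0453), which makes it the only V0 gene to rise at this threshold.

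**Figure D2:**
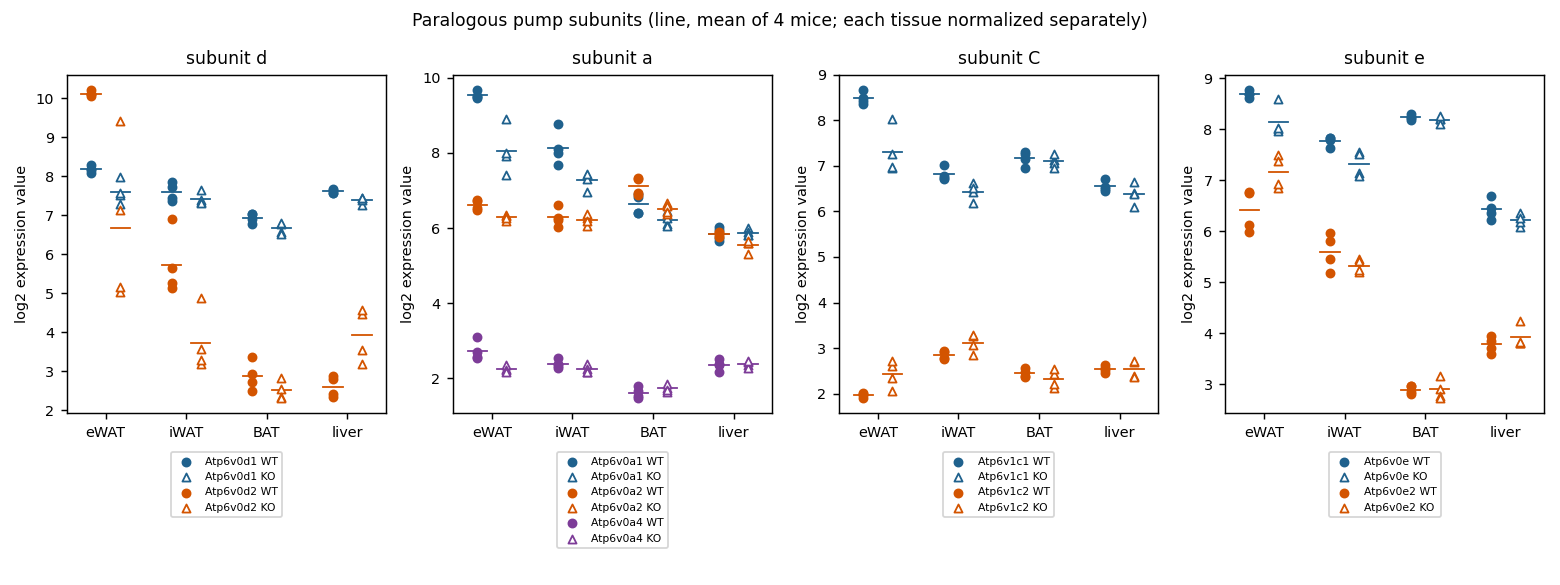
Log2 values of paralogous pump subunits in the 4 tissues, with filled circles for WT mice, open triangles for KO mice and a line at the mean of 4 mice. Each tissue was normalized separately, so only the difference between circles and triangles within a tissue can be read. In eWAT the triangles of *Atp6v0d2*, *Atp6v0a1* and *Atp6v1c1* lie below the circles and those of *Atp6v0e2* above them.

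Of the 13 V1 subunits 4 fell and 1 rose in eWAT, with a median difference of -0.33, and 5 of the 13 lay under the median of the table. The fall was clear in the catalytic core. *Atp6v1a*, the catalytic A subunit, measured 8.41, 8.64, 8.53 and 8.58 in WT and 6.95, 8.09, 7.11 and 6.75 in KO mice. It was 2.49-fold lower (difference -1.31, standard error 0.25, adjusted p = 0.0122), with no overlap. *Atp6v1b2*, the widely used B subunit that pairs with A, measured 7.69, 7.71, 7.69 and 7.63 in WT and 6.13, 7.44, 6.20 and 6.26 in KO mice. KO mice 1, 3 and 4 lay close together and KO mouse 2 just below the WT mice, and the mean was 2.25-fold lower (difference -1.17, standard error 0.26, adjusted p = 0.0178). *Atp6v1b1*, the B subunit of kidney and inner ear, was under the median of the table, at 2.62, 2.52, 2.82 and 2.53 in WT and 2.61, 2.50, 2.70 and 2.78 in KO mice.

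*Atp6v1c1*, the C subunit that holds both sectors together, measured 8.37, 8.67, 8.44 and 8.50 in WT and 7.25, 8.02, 6.96 and 6.98 in KO mice. It was 2.28-fold lower (difference -1.19, standard error 0.21, adjusted p = 0.0109). *Atp6v1c2*, its paralog, measured 2.01, 1.97, 2.00 and 1.91 in WT and 2.61, 2.05, 2.71 and 2.35 in KO mice. The groups did not overlap and the difference of 0.46 passed the threshold (adjusted p = 0.0475), but all 8 values lay under the median of the table. *Atp6v1e1*, a subunit of the peripheral stalk, measured 8.38, 8.34, 8.42 and 8.29 in WT and 8.11, 8.30, 7.63 and 8.08 in KO mice, which overlapped (difference -0.33, adjusted p = 0.127). Its testis paralog *Atp6v1e2* was under the median, between 2.78 and 3.00 in both genotypes.

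*Atp6v1g1*, which pairs with the E subunit in that stalk, measured 3.96, 4.22, 4.15 and 4.00 in WT and 3.74, 3.87, 3.59 and 3.63 in KO mice and fell by 0.38 (adjusted p = 0.0257). *Atp6v1g2*, a form known from neurons, measured 4.12, 4.24, 4.46 and 3.98 in WT and 4.89, 4.31, 4.32 and 4.28 in KO mice (difference 0.25, adjusted p = 0.325). *Atp6v1g3*, a kidney form, was under the median at 1.68 to 2.59. The remaining V1 subunits did not pass the threshold, with differences of -0.42 for *Atp6v1d*, -0.38 for *Atp6v1h* and 0.33 for *Atp6v1f*. Of the accessory proteins, *Atp6ap1*, which is needed for assembly of the V0 sector, measured 8.59, 8.60, 8.55 and 8.52 in WT and 7.54, 8.08, 7.37 and 7.77 in KO mice. It had the smallest adjusted p of the 42 genes (0.0090, difference -0.88, standard error 0.14). *Atp6ap2*, the prorenin receptor, fell by 0.83 (adjusted p = 0.0268), and *Atp6ap1l* was under the median of the table.

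Of the 10 cysteine cathepsins 6 fell in eWAT and none rose, with a median difference of -0.75. *Ctsk*, a strong collagenase, measured 7.83, 8.35, 8.55 and 8.17 in WT and 4.08, 7.44, 5.09 and 4.38 in KO mice. Its mean of 8.23 ± 0.30 (SD, n = 4) in WT was 7.88-fold above that of 5.25 ± 1.52 (SD, n = 4) in KO mice (difference -2.98, standard error 0.62, adjusted p = 0.0156). KO mouse 2 lay a little below the lowest WT mouse and the other 3 KO mice far below it.

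*Ctsh*, an aminopeptidase, measured 8.09, 8.11, 8.15 and 8.10 in WT and 6.17, 7.77, 6.57 and 6.16 in KO mice. The WT values were nearly alike, and the KO mean was 2.72-fold lower (difference -1.45, standard error 0.31, adjusted p = 0.0168). *Ctsl*, an endopeptidase of most lysosomes, measured 9.88, 9.97, 10.01 and 9.91 in WT and 8.56, 9.69, 8.72 and 8.52 in KO mice. It was 2.099-fold lower without overlap (difference -1.07, standard error 0.23, adjusted p = 0.0168). *Ctsb*, a cathepsin of most cells, measured 11.55, 11.56, 11.67 and 11.61 in WT and 10.77, 11.39, 10.62 and 10.81 in KO mice and fell by 0.70 (adjusted p = 0.0171). *Ctsc*, which activates granule proteases, fell by 0.66 (adjusted p = 0.0152) and *Ctsz*, a carboxypeptidase, by 0.81 (adjusted p = 0.0433). The call of *Ctsz* was lost after quantile normalization and in all but 1 of the 8 fits that left out an array.

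*Ctss*, the cathepsin of antigen-presenting cells, measured 10.19, 10.17, 10.26 and 10.21 in WT and 7.34, 10.14, 9.06 and 7.51 in KO mice. The groups did not overlap and the difference was -1.70, yet the value of KO mouse 2 lay only just below the WT mice and the adjusted p was 0.0622. *Ctsf* and *Ctso*, which were well above the median of the table, differed by -0.12 and 0.12 (adjusted p = 0.707 and 0.504), and *Ctsw*, a cathepsin of cytotoxic lymphocytes, was under it. Of the aspartic and serine proteases 3 of 5 fell. *Ctsa*, a serine carboxypeptidase that also shields other lysosomal enzymes, measured 9.70, 9.84, 9.90 and 9.79 in WT and 8.29, 9.36, 8.44 and 8.32 in KO mice. It was 2.30-fold lower (difference -1.20, standard error 0.21, adjusted p = 0.0108).

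*Tpp1*, the tripeptidyl peptidase lost in a childhood neuronal storage disease, measured 9.64, 9.74, 9.82 and 9.70 in WT and 8.55, 9.25, 8.03 and 8.73 in KO mice and was 2.12-fold lower (difference -1.08, standard error 0.21, adjusted p = 0.0130). *Ctsd*, the main aspartic protease of lysosomes, measured 10.91, 11.01, 11.03 and 11.02 in WT and 10.12, 10.86, 10.33 and 10.09 in KO mice and fell by 0.64 (adjusted p = 0.0251). *Ctse* and *Ctsg*, a second aspartic protease and a granule protease of neutrophils, were under the median of the table and did not differ past the threshold (adjusted p = 0.584 and 0.962). *Lamp2* measured 8.93, 8.98, 9.19 and 8.99 in WT and 8.45, 8.71, 7.998 and 8.56 in KO mice and fell by 0.59 (adjusted p = 0.0250). *Lamp1* measured 10.02, 10.09, 9.99 and 9.94 in WT and 9.43, 10.01, 9.29 and 9.56 in KO mice. Its KO mouse 2 lay among the WT mice, and the difference of -0.44 did not pass the threshold (adjusted p = 0.0643).

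**Figure D3:**
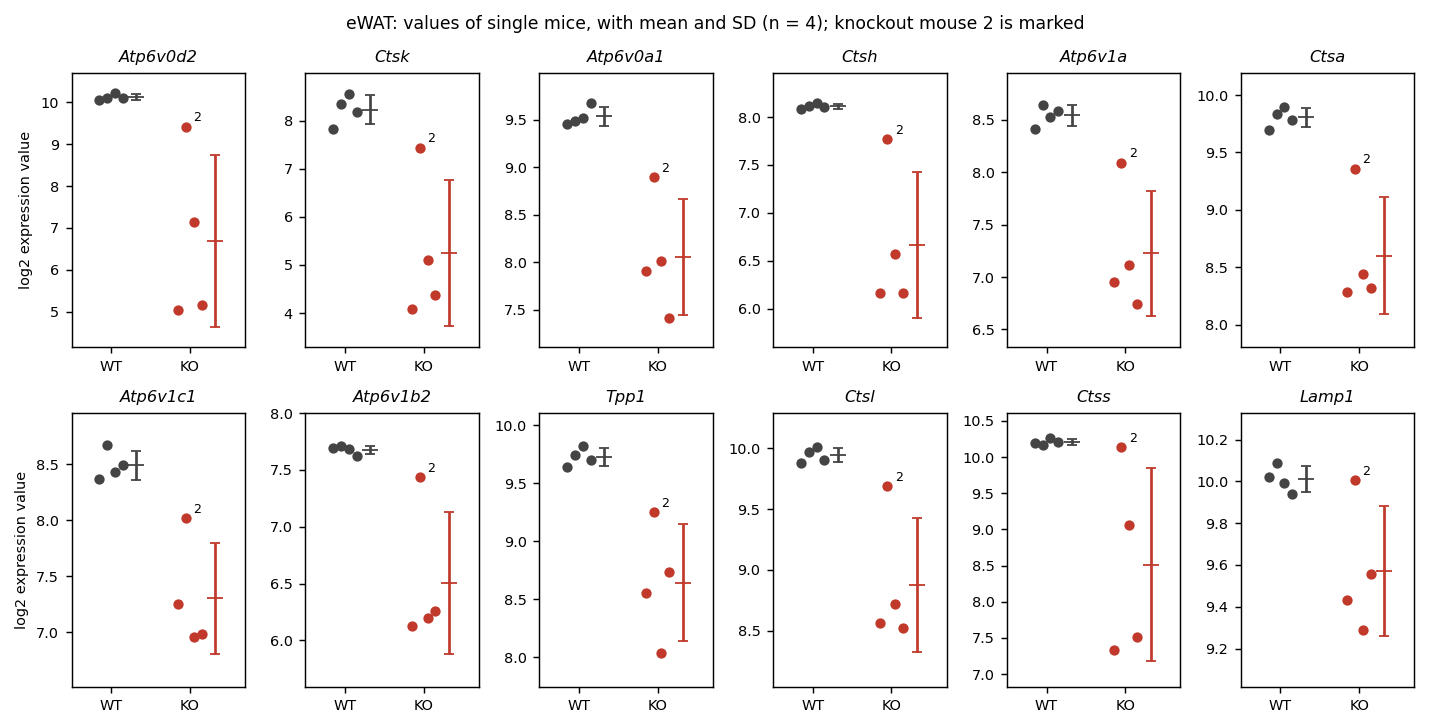
Log2 values in eWAT of the 10 genes with the largest differences past the threshold and of *Ctss* and *Lamp1*, with the 4 WT and the 4 KO mice as points, the mean as a line and 1 SD as an error bar, each panel on its own axis. KO mouse 2 is marked and is the KO point nearest to the WT points in every panel, among them at 10.01 in *Lamp1*, and the values of the first 10 genes do not overlap.

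The same KO mouse gave the highest of the 4 KO values in 22 of the 23 genes that fell, and all 4 KO arrays lay below all 4 WT arrays in each of the 23. The median distance of the 23 genes from the WT mean was -1.17 in KO mouse 1, -0.31 in KO mouse 2, -1.02 in KO mouse 3 and -0.99 in KO mouse 4. Without KO mouse 2, 27 genes fell and 2 rose, where 14.2% and 7.81% of all genes did so. *Ctss* (adjusted p = 0.0018), *Lamp1* (0.0016), *Atp6v1h* (0.0109) and *Atp6v1e1* (0.0384) then passed the threshold. The other arrays moved the count down. It was 17, 8, 16 and 12 without WT mice 1, 2, 3 and 4, and 13, 16 and 13 without KO mice 1, 3 and 4. Calls over all genes dropped in each of these fits as well. They went from 2632 lower and 1126 higher with all arrays to 1068 and 380 without WT mouse 2, the fewest. *Atp6v0a1*, *Atp6v0b*, *Atp6v1a*, *Atp6v1c1*, *Atp6ap1*, *Ctsc*, *Ctsa* and *Tpp1* passed the threshold whichever array was left out. *Ctsh* (0.0524), *Ctsk* (0.0511) and *Ctsl* (0.0530) failed it only without WT mouse 2. *Atp6v0d2* failed it without any 1 of the 4 WT mice or without KO mouse 1 or 4, with adjusted p up to 0.0659. *Atp6v0e*, *Atp6v1c2*, *Atp6ap2*, *Ctsd* and *Ctsz* passed it in only 1 of these 8 fits, and *Atp6v0e2* and *Atp6v1g1* in 2. With 4 arrays a group, the methods' t-test left 0 of the 42 genes past the threshold after adjustment, with 2 higher and 26 lower before it. After adjustment it called only 19 higher and 19 lower of the 24646 genes.

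Genes that work with these proteins were read from lists of the lysosome. Among 11 partners in assembly and regulation of the pump, *Tcirg1* among them, 4 fell and 1 rose in eWAT. *Wdr7*, a regulator of pump assembly, fell by 0.70 (adjusted p = 0.0103), *Ccdc115* by 0.54 (0.0250) and *Tmem199* by 0.32 (0.0439), the last pair being assembly factors of the V0 sector, while *Rogdi* rose by 0.63 (0.0399). Of 33 other lysosomal hydrolases 22 fell and none rose, with a median of -0.84. Examples are *Galns* (difference -1.65, adjusted p = 0.0078) and *Idua* (-0.92, 0.0093), which break down glycosaminoglycans, and the acid phosphatase *Acp2* (-1.16, 0.0089).

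Of 23 other lysosomal proteins 13 fell and none rose, with a median of -0.51. They include *Ctns*, the cystine transporter (-1.08, adjusted p = 0.0082), *Cln3*, the gene of a neuronal storage disease (-1.23, 0.0091), and *Cd63*, a membrane tetraspanin (-0.88, 0.0092). Of 12 cystatins and other cathepsin inhibitors, 10 of which were under the median of the table, only *Cstb* passed the threshold (-1.28, adjusted p = 0.0187). Of the 4 MiT/TFE factors that bind the CLEAR motif, *Tfec* (-1.51, 0.0142), *Mitf* (-0.71, 0.0202) and *Tfe3* (-0.50, 0.0177) fell. *Tfeb*, the one best known as a regulator of lysosomal genes, differed by -0.19 and did not pass the threshold (adjusted p = 0.192). In each of the 4 factors, *Tfeb* included, all 4 KO arrays lay below all 4 WT arrays, where 13.0% of all genes did so. None of the genes of these 5 lists passed the threshold in liver, iWAT or BAT.

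Markers of macrophages moved with the members in eWAT. The macrophage markers were *Adgre1*, *Itgam*, *Csf1r*, *Mertk*, *Fcgr1*, *C1qa*, *C1qb*, *C1qc*, *Cd14*, *Lyz2*, *Mrc1*, *Timd4* and *Clec4f*. Of these 13 genes 10 fell and none rose. The mean of the 13 was 7.33 to 7.63 in WT and 5.43, 7.09, 6.04 and 5.66 in KO mice 1 to 4. The list read for lipid-associated macrophages held *Trem2*, *Gpnmb*, *Cd9*, *Spp1*, *Itgax*, *Mmp12*, *Fabp5*, *Dcstamp*, *Ocstamp*, *Oscar* and *Nfatc1*. Whether each of them marks that cell type alone was not tested. Of these 11 genes 8 fell, with a mean over the list of 6.47 to 6.68 in WT and 4.40, 6.15, 5.20 and 4.55 in KO mice. Of 7 mast cell markers 4 fell, with a mean of 3.76 to 4.77 in WT and 2.70, 3.73, 2.91 and 2.99 in KO mice. In all 3 lists KO mouse 2 was the KO mouse nearest to the WT mice, as in the genes of the pump and the cathepsins. Of 6 adipocyte markers 5 rose and *Lep* fell (difference -0.98), and their mean was 9.26 to 9.35 in WT and 9.41 to 9.71 in KO mice. None of 6 T cell and 6 B cell markers passed the threshold and 1 of 8 markers of cytotoxic lymphocytes fell. The 7 neutrophil markers, 1 of which rose, and the 9 epididymis markers were all under the median of the table. In bulk tissue, fewer cells of a type and less RNA per cell cannot be told apart, and the part of these cell types in the fall of the lysosomal genes was not tested.

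**Figure D4:**
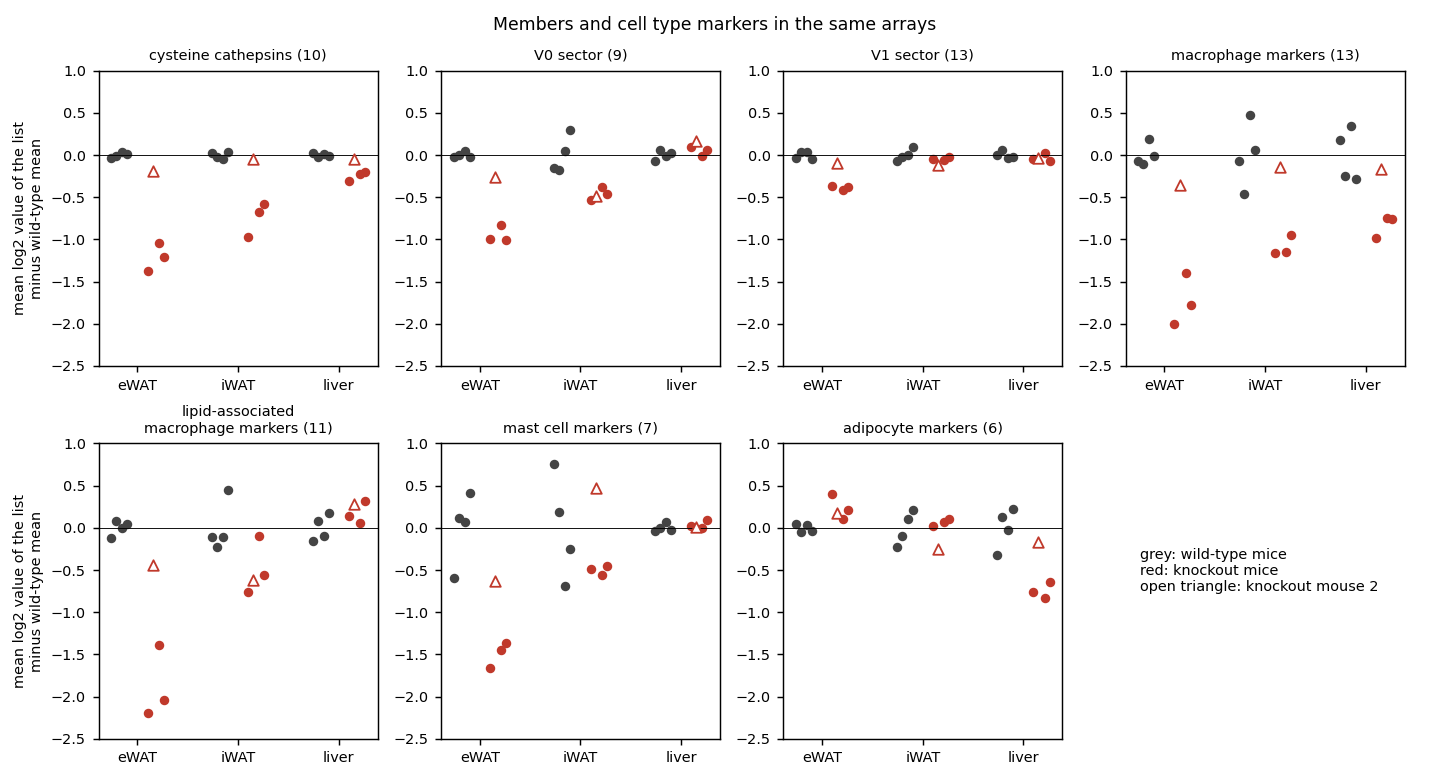
Mean log2 value of a list in each array minus the WT mean of that tissue, for 3 classes of the 42 genes and 4 lists of cell type markers in eWAT, iWAT and liver. In eWAT KO mouse 2 (open triangle) is the KO mouse nearest to the WT mice in the 3 classes and in the macrophage and mast cell panels.

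In liver, none of the 42 genes passed the threshold, at which 0.162% of all genes rose and 0.499% fell. Before adjustment 3 were higher and 12 lower at p below 0.05, and the median difference was -0.11 against 0.01 over all genes. All 4 KO livers lay below all 4 WT livers in 11 of the 42 and above them in 2, against 4.16% and 3.62% of all genes. *Atp6v0d2* had the smallest p, and in the direction opposite to that in eWAT. It measured 2.43, 2.33, 2.87 and 2.79 in WT and 4.48, 4.56, 3.19 and 3.54 in KO livers. Every KO liver was above every WT liver, and the difference was 1.33 (standard error 0.28, adjusted p = 0.0595). Without KO mouse 3, the lowest of the KO livers, the adjusted p was 0.0235. All 4 WT values lay under the medians of the liver arrays, which were 3.00 to 3.06. The genes of the lipid-associated macrophage list had means of 3.40 to 3.73 in WT and 3.62 to 3.88 in KO livers, and none of the 11 passed the threshold.

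*Ctss* measured 6.77, 6.16, 6.69 and 6.52 in WT and 4.34, 6.30, 4.66 and 4.74 in KO livers. KO mouse 2 lay among the WT livers and the other 3 below all of them. The difference of -1.52 had an adjusted p of 0.0806, and of 0.000252 without KO mouse 2. The macrophage markers had means of 4.67 to 5.30 in WT and 3.97, 4.79, 4.21 and 4.20 in KO livers, 1 of 13 past the threshold and lower, and their part in the *Ctss* values was not tested. *Tpp1* measured 7.62, 8.04, 7.76 and 8.01 in WT and 7.29, 7.32, 7.62 and 7.38 in KO livers (difference -0.46, adjusted p = 0.103). *Ctsl*, 1 of the 2 genes with all KO livers above all WT livers, measured 9.33, 9.50, 9.30 and 9.42 in WT and 9.66, 9.91, 9.59 and 9.88 in KO livers (difference 0.37, adjusted p = 0.109).

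In iWAT no gene of the whole table passed the threshold (0%), and before adjustment 1 of the 42 genes was higher and 14 lower at p below 0.05. The median difference was -0.27 against 0.02 over all genes, and 14 of the 15 proteases were below 0. All 4 KO arrays were below all WT arrays in 9 of the 42 and above them in none, against 3.86% and 4.29% of all genes. *Atp6v0d2* measured 5.64, 5.13, 5.26 and 6.91 in WT and 3.19, 3.28, 4.87 and 3.56 in KO mice, which did not overlap (difference -2.01, standard error 0.46, adjusted p = 0.221). *Atp6v0a1* measured 7.68, 8.001, 8.10 and 8.78 in WT and 6.95, 7.41, 7.30 and 7.45 in KO mice (difference -0.86, adjusted p = 0.221). *Ctsc* measured 8.22, 8.18, 8.15 and 8.19 in WT and 6.91, 7.99, 6.08 and 7.15 in KO mice (difference -1.15, adjusted p = 0.228). In *Ctsc* the WT mice lay close together and all KO mice below them, KO mouse 2 least.

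*Ctss* in iWAT measured 8.73, 8.66, 8.14 and 8.51 in WT and 5.99, 8.80, 7.32 and 6.84 in KO mice, so that KO mouse 2 was the highest of all 8. Without KO mouse 2, 4 cathepsins fell, *Ctsc* (adjusted p = 0.0403), *Ctsh* (0.0410), *Ctss* (0.0428) and *Ctsa* (0.0445), where 0.475% of all genes did so. The macrophage markers had means of 6.06 to 6.99 in WT and 5.36, 6.38, 5.37 and 5.56 in KO mice. Without KO mouse 2, the arrays with a B cell marker mean above 7 were WT mice 1 and 2 alone. The part of either cell type in these calls was not tested. *Ctsk*, strongly lower in eWAT, measured 5.05, 4.56, 6.17 and 5.99 in WT and 4.89, 5.43, 5.88 and 5.20 in KO mice, with full overlap (difference -0.09, adjusted p = 0.906). *Ctsw* was highest in WT mice 1 and 2 (5.95 and 6.54) and KO mouse 2 (6.00) and between 4.00 and 4.44 in the other 5. The mean of the B cell markers was 8.01 and 7.94 in those WT mice and 7.70 in that KO mouse, and between 3.36 and 5.91 in the others.

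In BAT none of the 42 genes passed the threshold, at which 0.00406% of all genes rose and 0.0243% fell. Before adjustment 5 were lower and none higher at p below 0.05, and the median difference was -0.07 against 0.00 over all genes. All KO arrays were below all WT arrays in 2 of the 42 genes and above them in 1, against 3.92% and 3.31% of all genes. *Atp6v0a2* measured 6.93, 7.34, 6.88 and 7.29 in WT and 6.67, 6.60, 6.37 and 6.43 in KO mice (difference -0.60, adjusted p = 0.125). *Tpp1* measured 7.62, 7.83, 7.59 and 7.73 in WT and 7.38, 7.30, 7.10 and 7.45 in KO mice (difference -0.39, adjusted p = 0.154). These are the 2 genes whose KO mice all lay below the WT mice. *Atp6v0a1*, next by p, measured 6.40, 6.90, 6.40 and 6.84 in WT and 6.12, 6.27, 6.04 and 6.46 in KO mice, which overlapped (difference -0.41, adjusted p = 0.262). *Atp6v0d2* and *Ctsk* differed by -0.37 and -0.05 in BAT (adjusted p = 0.441 and 0.947).

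**Figure D5:**
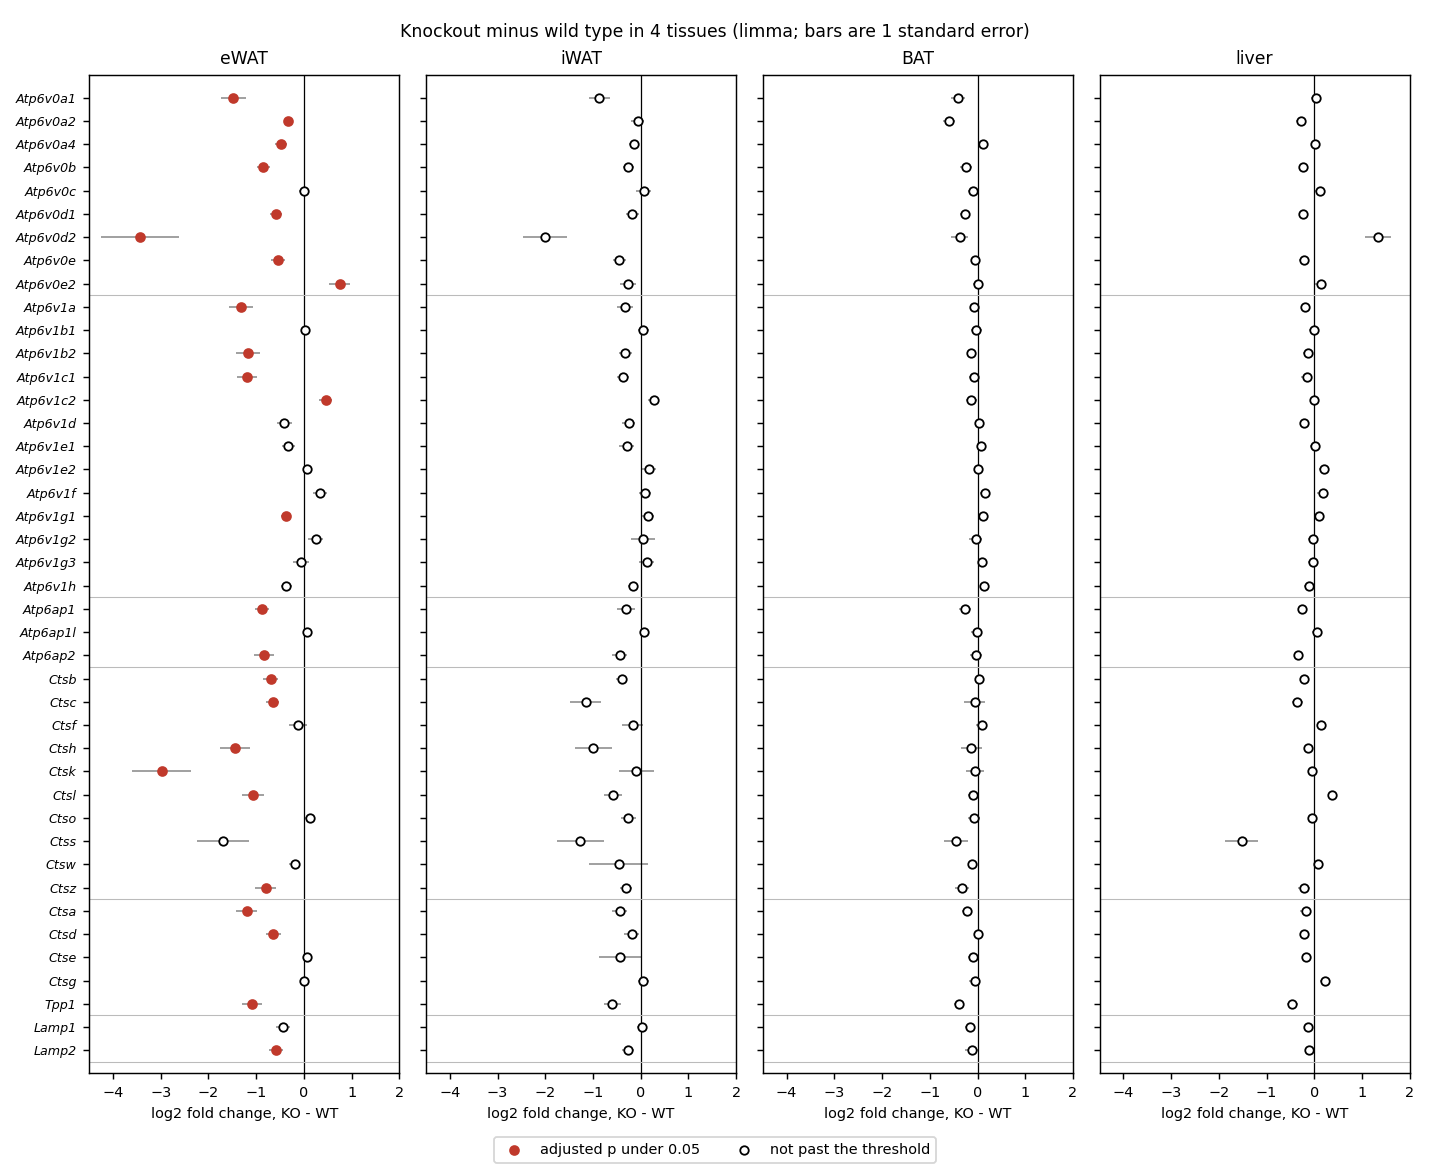
Difference KO minus WT (log2, points) with 1 standard error (bars) for the 42 genes in eWAT, liver, iWAT and BAT, with filled points for genes at an adjusted p below 0.05. Filled points occur only in the eWAT panel, 23 below 0 and 2 above, and *Atp6v0d2* lies at -3.44 in eWAT, 1.33 in liver, -2.01 in iWAT and -0.37 in BAT.

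Whether the eWAT difference was itself unlike that of another tissue was tested with limma on the eWAT value minus the other tissue's value of each mouse number, KO against WT. The labels do not say that a number is the same animal in both tissues, so a fit that does not use the number was run as well. The 3 comparisons use the same eWAT arrays, so they are no independent evidence for each other. Against liver, 12 of the 42 genes were more negative in eWAT and 1 more positive, where 5.71% and 2.65% of all genes were. The median was -0.33 against 0.01 over all genes. *Atp6v0d2* had a difference between the tissues of -4.77 (standard error 0.75, adjusted p = 0.0071) and *Ctsl*, which was higher in every KO liver, of -1.44 (standard error 0.21, adjusted p = 0.0058). *Atp6v0a1* (-1.51, adjusted p = 0.0097), *Atp6v1b2* (-1.03, 0.0106) and *Ctsa* (-1.02, 0.0117) likewise passed with every mouse left out in turn. The other genes past the threshold lost it without at least 1 mouse. In the fit without mouse numbers *Atp6v1c2* lost its call (adjusted p = 0.114) and the other 12 kept theirs. The count was 6, 6 and 5 without WT mice 2, 3 and 4, 6, 7 and 6 without KO mice 1, 3 and 4, and 21 without KO mouse 2. Calls over all genes moved the same way. They were 1408 more negative and 654 more positive with all mice, 660 and 267 without WT mouse 2, and 2077 and 1053 without KO mouse 2.

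Against BAT, 12 genes were more negative in eWAT and 1 more positive, where 4.75% and 2.17% of all genes were, with a median of -0.48 against 0.01. *Ctsh* (-1.31, standard error 0.15, adjusted p = 0.0074) and *Ctsk* (-2.93, standard error 0.50, adjusted p = 0.0109) passed with every mouse left out. In the fit without mouse numbers only 8 of the 13 genes kept their call, and *Ctsh* (adjusted p = 0.0720), *Atp6v0d2* (0.0579), *Atp6ap1* (0.0847), *Ctss* (0.300) and *Atp6v0e2* (0.0959) lost it. *Ctsk* and *Atp6v0d2* were under the median of the table in BAT, as *Ctsk* was in liver, so there was little signal there in which a fall could show. The count was 4, 2, 6 and 2 without WT mice 1 to 4, 2, 4 and 4 without KO mice 1, 3 and 4, and 21 without KO mouse 2. Calls over all genes moved likewise. They were 1171 more negative and 536 more positive with all mice, 416 and 177 without WT mouse 2, and 1745 and 781 without KO mouse 2. The gene more positive in eWAT was *Atp6v0e2* (0.75, adjusted p = 0.0488), and under a variance prior that was trended and robust its adjusted p was 0.261. Against iWAT none of the 42 passed and none of all genes did (0%), with 1 of the 42 higher and 10 lower at p below 0.05 before adjustment. *Ctsa* had the smallest adjusted p (0.116, difference -0.76), and *Ctsk*, whose differences in eWAT and iWAT were -2.98 and -0.09, had an adjusted p of 0.139. Without KO mouse 2, *Ctsk* (adjusted p = 0.0037), *Atp6v1b2* (0.0162), *Atp6v1a* (0.0203), *Ctsa* (0.0217), *Atp6v0d2* (0.0250) and *Atp6v1c1* (0.0390) were more negative in eWAT than in iWAT. In that fit 333 of the 24646 genes were more negative and 68 more positive.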

How the data were processed

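The authors hybridized 100 ng of total RNA per mouse and tissue to Affymetrix Mouse Gene 2.1 ST arrays and deposited log2 expression values, 1 per gene symbol, already normalized between the arrays of each tissue. The software, probe summary and normalization are not given in the sources used here. Several probe sets had been averaged for 2 of the 42 genes (*Atp6v1b2* and *Atp6v1g1*). Array medians lay between 2.82 and 3.73 and differed little within a tissue. The number of arrays limits the precision. The labels name separate mice. The titles of the liver KO samples name both genotypes, and genotype, description and source name were followed. Columns without a sample numbered 0.

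In each tissue KO and WT were set against each other with limma (version 3.58.1 under R 4.3.3), two-sided, with Benjamini-Hochberg adjustment over 24646 genes and a threshold of 0.05, tested on simulated data. Members, lists and the rule for named genes (the 10 largest changes past the threshold in eWAT, the 3 smallest p in other tissues, paralogs, and a few well known cathepsins and LAMPs) were chosen with earlier results of these data known. From each list the 4 genes with the smallest p in eWAT were named, apart from some that are not reported here. Older symbols were matched through RefSeq synonyms for 2 list genes. The alternatives were quantile normalization, equal array medians, a trended and robust prior, array weights, dim genes (under the median of the table) left out, the methods' t-test, a block for the replicate number, 1 fit over both tissues, and each array left out.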

Additional observations from a re-analysis of the deposited data

Results flagged for a closer look

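With 4 values in a group, a single array far from the other 3 was sought in 90 groups of named genes, and 6 groups held one, where chance gives about 1 in 20. In eWAT, KO mouse 2 was far above the other KO mice in *Atp6v0e* (8.59), *Atp6v1b2* (7.44), *Ctsa* (9.36) and *Ctsl* (9.69), and in each of them it was the KO mouse nearest to the WT mice. KO mouse 1 was far above the others in *Atp6v1g2* in eWAT (4.89), and WT mouse 2 far below them in *Ctss* in BAT (5.77). Over all 336 groups of the 42 genes, 18 held such an array.

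The KO effect differed between eWAT and liver by a test of the difference itself for 13 genes. The difference between the tissues was -4.77 for *Atp6v0d2*, -2.92 for *Ctsk*, -1.51 for *Atp6v0a1*, -1.44 for *Ctsl*, -1.32 for *Ctsh* and -1.12 for *Atp6v1a*. It was -1.03 for *Atp6v1b2* and *Atp6v1c1*, -1.02 for *Ctsa*, -0.62 for *Atp6v0b* and *Atp6ap1*, -0.48 for *Atp6v1g1* and 0.46 for *Atp6v1c2*. Between eWAT and BAT it was past the threshold for 13 genes, at -3.06 for *Atp6v0d2*, -2.93 for *Ctsk*, -1.31 for *Ctsh*, -1.25 for *Atp6v1a* and *Ctss*, -1.12 for *Atp6v1c1* and -1.03 for *Atp6v1b2*. The others were *Ctsa* at -0.99, *Ctsl* at -0.97, *Ctsb* at -0.74, *Atp6ap1* at -0.62, *Atp6v0a4* at -0.59 and *Atp6v0e2* at 0.75. In eWAT *Atp6v1c2* and *Atp6v0a4* lay under the median of the table, as did *Ctsk* in liver and BAT and *Atp6v0d2* in BAT.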

How the results depend on the processing

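Of the 42 genes, the 25 past the threshold in eWAT became 22 after quantile normalization (*Atp6v0a2*, *Atp6v1c2* and *Ctsz* lost their call), 25 with equal array medians, 28 with array weights, 25 under a prior that was trended and robust, 26 with dim genes left out and 0 with the methods' t-test after adjustment. Over all genes that t-test called 19 higher and 19 lower. The main fit called 2632 genes lower and 1126 higher. These were 1910 and 1830 after quantile normalization, 2463 and 1164 with equal array medians, and 2487 and 1125 under that prior. Array weights raised them to 3325 and 1970. With dim genes left out, 32 of the 42 genes remained, and 2747 of all 12323 genes were lower and 1082 higher. Leaving out 1 array gave 8 to 29 of the 42 genes, and over all genes 1068 to 3505 lower and 380 to 1924 higher. With the replicate block 22 were past it, and *Atp6v0a2*, *Atp6v0e*, *Atp6v1c2* and *Lamp2* lost their call. Over all genes that block gave 2452 lower and 953 higher. Within a tissue, WT and KO samples of the same number correlated in their deviations with r between -0.38 and 0.67, so WT and KO were not taken as pairs. The 0 genes of liver became 1 with dim genes left out (*Atp6v0d2*, adjusted p = 0.0482, whose WT values lie under the array medians, so that it passed this filter through its KO values) and 0 to 1 with 1 array left out. In liver with dim genes left out, 67 of all 12323 genes were higher and 185 lower. The 0 of iWAT became 0 to 4 and those of BAT stayed at 0 with 1 array left out. For eWAT against liver the 13 genes became 12 in 1 fit without mouse numbers, which kept 12 of the 13, and 14 after quantile normalization and 5 to 21 with 1 mouse left out. For eWAT against BAT the 13 became 11 in that fit, which kept 8 of the 13, then 13 and 2 to 21, and for eWAT against iWAT the 0 became 0 to 6 with 1 mouse left out. In each comparison of tissues the highest count came without KO mouse 2, where calls over all genes rose too. The causes were not tested. No called difference changed its sign under these alternatives. Genes under the median of the table, 10 of the 42 in eWAT, 9 in liver, 9 in iWAT and 12 in BAT, have little signal over background, and changes there may be missed.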
